A study of Homo sapiens with 6 samples.

Results

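The protein-coding genes of the cytosolic ribosome were followed in HaCaT cells, an immortalised human keratinocyte line, that had been made to express a photolyase of the marsupial Potorous tridactylus. Members were the genes with a symbol beginning RPL or RPS followed by a digit, P or A, and with a deposited count in every library, without S6 kinase genes and pseudogenes. Of 100 matching symbols, 10 were S6 kinase genes, 3 were pseudogenes (RPS4XP21, RPL21P1 and RPL23AP87) and 1 had no value, which left 86 of the 19493 genes with a value. They comprised 46 canonical large-subunit proteins, 30 canonical small-subunit proteins, 9 paralogs (RPL3L, RPL7L1, RPL10L, RPL22L1, RPL26L1, RPL36AL, RPL39L, RPS27L and the Y-linked RPS4Y1, whose level is not given) and RPS19BP1, a nucleolar partner of RPS19 and no ribosomal protein itself. RPL17 was represented by its readthrough locus RPL17-C18orf32.

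A CPD photolyase uses visible light to reverse cyclobutane pyrimidine dimers, the most frequent DNA lesions made by UVC, and all 3 groups carried it. In the UVC with active photolyase group, cells had received 15 J/m2 of UVC at 254 nm and white light for 2 h. The UVC group had the same irradiation with the photolyase left inactive, and both irradiated groups are described as harvested at 6 h. Control cells were untreated, also with inactive photolyase. Each group had 2 libraries. The descriptions give white light to the active photolyase group alone, so the light and the enzyme's activity cannot be told apart. Nothing in the labels says that the replicates were separate cultures, so the spread behind each p-value may be technical.

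Ribosomal proteins fold around the ribosomal RNAs in near-equal amounts, small-subunit proteins around the decoding centre and large-subunit proteins around the centre of peptide bond formation. Their genes are short and highly expressed, and most of their mRNAs begin with a terminal oligopyrimidine (TOP) tract, a C followed by further pyrimidines. Through that tract, LARP1 and the kinase complex mTORC1 control their translation and stability. When assembly of ribosomes fails, free RPL5 and RPL11 bind MDM2, the ubiquitin ligase of p53.

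The first bases of 10 members are printed because the tract at the transcript start is what most of these genes share, and the lines show how far the paralogs share it. Each line gives 15 bases before and 15 bases from the annotated RefSeq start, 5′ to 3′ on the gene's strand (build GRCh38.p14). Capitals mark a C with at least 4 pyrimidines behind it, at the start or beginning within 5 bases of it, and a line without capitals has none there.
RPS27, chr1:153990747-153990776, plus strand: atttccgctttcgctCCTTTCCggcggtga
RPS28, chr19:8321481-8321510, plus strand: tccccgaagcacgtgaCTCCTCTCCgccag
RPS25, chr11:119018329-119018358, minus strand: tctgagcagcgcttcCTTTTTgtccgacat
RPL24, chr3:101686704-101686733, minus strand: ttcccatgattctctCTTTCTTTTCgccat
RPL22, chr1:6199581-6199610, minus strand: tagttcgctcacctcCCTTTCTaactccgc
RPL36A, chrX:101390996-101391025, plus strand: tttgcctcgcggtttCTTTCTTTCCgcgcc
RPL22L1, chr3:170870181-170870210, minus strand: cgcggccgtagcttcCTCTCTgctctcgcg
RPL36AL, chr14:49620612-49620641, minus strand: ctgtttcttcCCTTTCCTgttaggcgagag
RPL7L1, chr6:42879601-42879630, plus strand: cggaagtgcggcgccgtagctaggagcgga
RPS27L, chr15:63157463-63157492, minus strand: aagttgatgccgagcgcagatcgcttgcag
The tract of RPS27 starts at the annotated first base and runs for 7 pyrimidines, and that of RPL24 runs for 10. RPS28 has its tract 1 base downstream of the annotated start, and the capitals of RPL36AL begin at the edge of the searched stretch, 5 bases upstream, inside a longer run of pyrimidines. RPS27L and RPL7L1 have no such run in the searched stretch, whereas RPL22L1 has a short tract of 6 bases at its start. Of the 62 canonical genes with a RefSeq start, 46 (74.2%) had the tract exactly at it and 53 (85.5%) within 5 bases. Exactly at the start, the search found it in 1404 of 27305 genes with a start (5.14%) and in 709 of 9457 tested genes (7.497%). Within 5 bases it was found in 6886 (25.2%) and 2753 (29.1%) of them. Of the 7 paralogs with a start, 2 had it exactly there and 3 within 5 bases. A match is a property of the annotated sequence and says nothing of where transcription began in these cells.

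Libraries held 57669389 to 70005705 counts over all genes. Counts were tested with edgeR's quasi-likelihood test over 11926 genes with at least 1 cRPKM (the authors' corrected RPKM, a read count per length and depth) in at least 2 libraries. TMM scaling, a trimmed mean of log ratios that takes most genes as unchanged, gave factors of 0.954 and 0.957 for UVC with active photolyase, 1.18 for each UVC library, and 0.887 and 0.885 for control. Levels below are cRPKM divided by these factors, so changes are stated against the bulk of transcripts and not per cell. All 9 keratinocyte markers were tested, with summed levels of 26509 and 26592 with active photolyase, 15955 and 15627 after UVC, and 29125 and 28334 in control. Of 6 melanocyte markers only MITF passed the filter, and TYR was at 0 in all libraries. Of 7 fibroblast markers 2 passed, and the summed level was at most 9.59.

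Ribosomal protein genes took a larger part of the counts in both irradiated groups. The 86 genes held 6.01 and 6.17% of all counts with active photolyase, 7.46 and 7.61% after UVC, and 4.71 and 4.36% in control. The 95% Wilson interval of each share reached at most 0.00684 percentage points to either side, which covers counting error only. Group means were 6.09 ± 0.115% with active photolyase, 7.53 ± 0.108% after UVC and 4.54 ± 0.243% in control (SD, n = 2 each). No 2 groups overlapped, but with 2 libraries against 2 an exact permutation test cannot give a two-sided p below 0.33. Transcripts of the mitochondrial genome, which are likewise abundant, took 4.09 and 3.21% with active photolyase, 5.13 and 5.28% after UVC, and 3.32 and 3.92% in control. Without them in the denominator the ribosomal protein shares were 6.26 and 6.37% with active photolyase, 7.86 and 8.03% after UVC, and 4.87 and 4.54% in control.

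After TMM scaling the irradiated groups lay close together. Summed scaled cRPKM of the genes was 76636 and 78346 with active photolyase, 77352 and 78876 after UVC, and 63818 and 59272 in control. The shares of the irradiated groups did not overlap, whereas their scaled sums did.

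**Figure D1:**
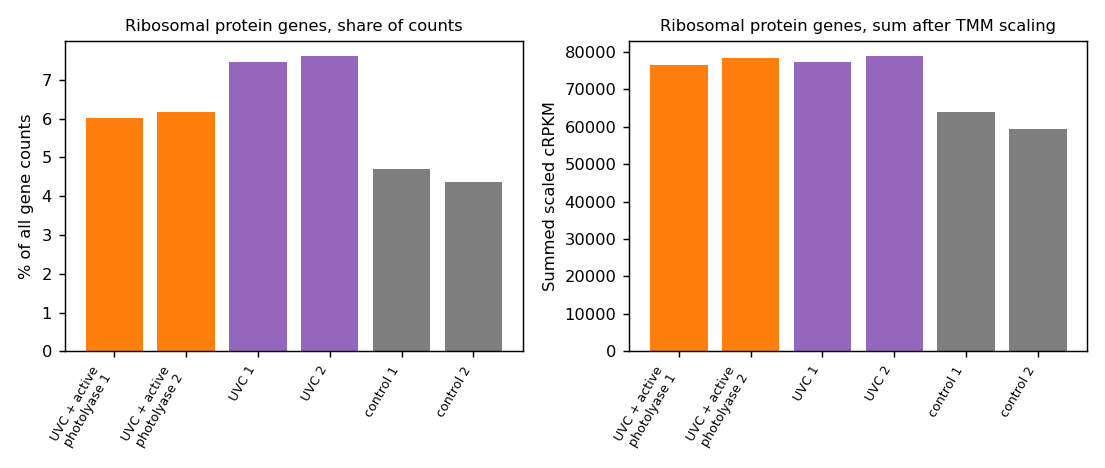
Ribosomal protein genes in each library, as a percentage of all gene counts (left) and as summed cRPKM after TMM scaling (right), 1 bar per library. By share, UVC stands above UVC with active photolyase and both above control, whereas the scaled sums of the irradiated libraries lie between 76636 and 78876, all above the control libraries at 63818 and 59272.

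Within the family, levels per length covered a wide range. RPS27 of the small subunit had the highest mean over the 6 libraries (2927 scaled cRPKM), followed by RPL7A (2663) and RPS2 (2159), against a median of 852 over the 76 canonical genes. RPSA, the small-subunit protein also known as the laminin receptor precursor, had the lowest canonical level (29.3), but its effective length, the deposited count divided by cRPKM and depth, was only 0.030 kb. Its counts were 67 and 56 with active photolyase, 53 and 73 after UVC, and 54 and 42 in control. Effective length reached 7.34 kb for RPL37, was under 1 kb for 51 canonical genes and over 2 kb for 12, so an order of levels between genes depends on it. Each autosomal paralog was below its canonical partner in every library. Ribosomal proteins have many processed pseudogenes, and how reads shared with them were counted is not given in the sources used here, so the level of a single gene is uncertain.

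Comparison of UVC with control asks how the family stood 6 h after irradiation with the photolyase inactive. Ribosomal protein mRNAs rose together and by little. Of the 83 members that passed the filter, 74 rose, 2 fell and 7 were not called, while 42.5% of all tested genes were called higher, 43.1% lower and 14.4% neither. Their median log2 fold change was 0.34 (1.27-fold), against 0.00 for all tested genes, and the members ran from -0.89 to 0.67. A fitted change within 0.1 of 0 was found in 5 members (6.02%) and in 8.07% of all tested genes. No member changed by as much as 2-fold, against 28.6% of all tested genes. Both UVC libraries were above both control libraries in 76 members, where 46.4% of all tested genes showed the same. In the large subunit 42 of 46 genes rose (median 0.33) and in the small subunit 29 of 30 (median 0.35), with none lower in either. Library totals in place of TMM moved the median of all tested genes to 0.42, and the members then stood at 0.76 with 81 higher and 1 lower.

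The 2 control libraries were not alike in this family: the first stood above the second in all 76 canonical genes, by a median ratio of 1.08. Without the first control library the median was 0.39 and 77 members were called higher, and without the second it was 0.30 and 68 were. Summed levels of the immune marker list were likewise higher in both irradiated groups, at 188 and 199 with active photolyase, 182 and 183 after UVC, and 146 and 133 in control. Only CD74, CD68, CD14 and CD3E of its 8 markers passed the filter and CD1A was at 0 in all libraries. The libraries are described as HaCaT cells, a keratinocyte line, so these sums give no measure of immune cells. Any link between this list and the family's change was not tested. In bulk RNA fewer cells of a type and less RNA per cell cannot be told apart.

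The highest small-subunit changes belonged to short proteins. RPS27, a zinc-finger protein of the small subunit, had 3170 and 3124 scaled cRPKM with active photolyase, 3404 and 3510 after UVC, and 2319 and 2035 in control. Its UVC libraries were the highest and its control libraries the lowest, with no overlap between any groups, and it rose after UVC over control by a log2 fold change of 0.67 ± 0.06 (SE; adjusted p = 2.47e-07, edgeR). RPS28, which lies near the mRNA exit, had 913 and 972 with active photolyase, 1055 and 1071 after UVC, and 726 and 654 in control, and rose by 0.62 ± 0.06 (adjusted p = 2.72e-07, edgeR). RPS25, which many viral mRNAs need for internal initiation, had 1254 and 1305 with active photolyase, 1311 and 1387 after UVC, and 936 and 888 in control, and rose by 0.57 ± 0.06 (adjusted p = 3.59e-07, edgeR). In RPS25 the 2 irradiated groups lay side by side and well above control. RPS6, the target of the S6 kinases, had 692 and 708 with active photolyase, 661 and 690 after UVC, and 581 and 547 in control, a log2 fold change of 0.26 for UVC over control. Other small-subunit genes named for their roles moved by similar amounts over control: RPS3 of the mRNA entry by 0.23, RPS4X by 0.26, RPS14 by 0.29, RPS27A, which is made as a fusion with ubiquitin, by 0.30, and RPS19, mutated in Diamond-Blackfan anaemia, by 0.34. Each of these 6 genes was called higher, and RPS3 lost its call with no filter on low values (adjusted p = 0.0556, edgeR).

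Large-subunit genes had log2 fold changes from 0.01 to 0.49 for UVC over control. RPL13A, known also for its part in interferon-gamma-induced translational silencing, had 1353 and 1370 scaled cRPKM with active photolyase, 1404 and 1448 after UVC, and 1047 and 980 in control. It had the highest log2 fold change of the subunit for UVC over control, 0.49 ± 0.05 (adjusted p = 1.41e-06, edgeR). RPL11, which binds MDM2 together with RPL5, had 1337 and 1368 with active photolyase, 1347 and 1429 after UVC, and 1043 and 1006 in control, and rose by 0.44 ± 0.05 (adjusted p = 3.74e-06, edgeR). Its partner RPL5 was not called: it had 869 and 899 with active photolyase, 787 and 808 after UVC, and 804 and 758 in control, a log2 fold change of 0.03 with a 95% interval of -0.09 to 0.15 for UVC over control. RPL23, a further MDM2-binding protein, rose by 0.31 ± 0.06 (adjusted p = 0.000179, edgeR). The stalk proteins, which recruit the translation factors, rose as a trio, RPLP0 by 0.23, RPLP1 by 0.31 and RPLP2 by 0.39.

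Besides RPL5, canonical genes not called between UVC and control were RPL14, RPL3, RPL28 and RPSA. All 5 were called higher with library totals. With a filter of 5 cRPKM, RPL3, RPL5 and RPL28 were called higher by 0.19, 0.15 and 0.22, and without the first control library RPL3 and RPL28 were (adjusted p of 0.0499 and 0.0414 in edgeR). RPL3, whose loop reaches towards the peptidyl transferase centre, had 909 and 914 scaled cRPKM with active photolyase, 936 and 955 after UVC, and 925 and 870 in control. All its libraries lay in a narrow band in which each UVC value topped the control values by little, and its log2 fold change was 0.08 (95% interval -0.04 to 0.19). RPL28, which has no homologue in budding yeast, had 690 and 830 with active photolyase, 841 and 777 after UVC, and 797 and 709 in control. Its replicates differed by more than its groups did, and its 95% interval for UVC over control ran from -0.07 to 0.28. RPL14 had 399 and 437 with active photolyase, 381 in both UVC libraries, and 396 and 360 in control, so that the UVC values fell between those of control. RPS19BP1, the binding partner of RPS19, had 27.8 and 28.4 with active photolyase, 28.9 and 31.99 after UVC, and 24.3 and 25.2 in control, and rose by 0.30 ± 0.07 after UVC over control (adjusted p = 0.000819, edgeR).

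**Figure D2:**
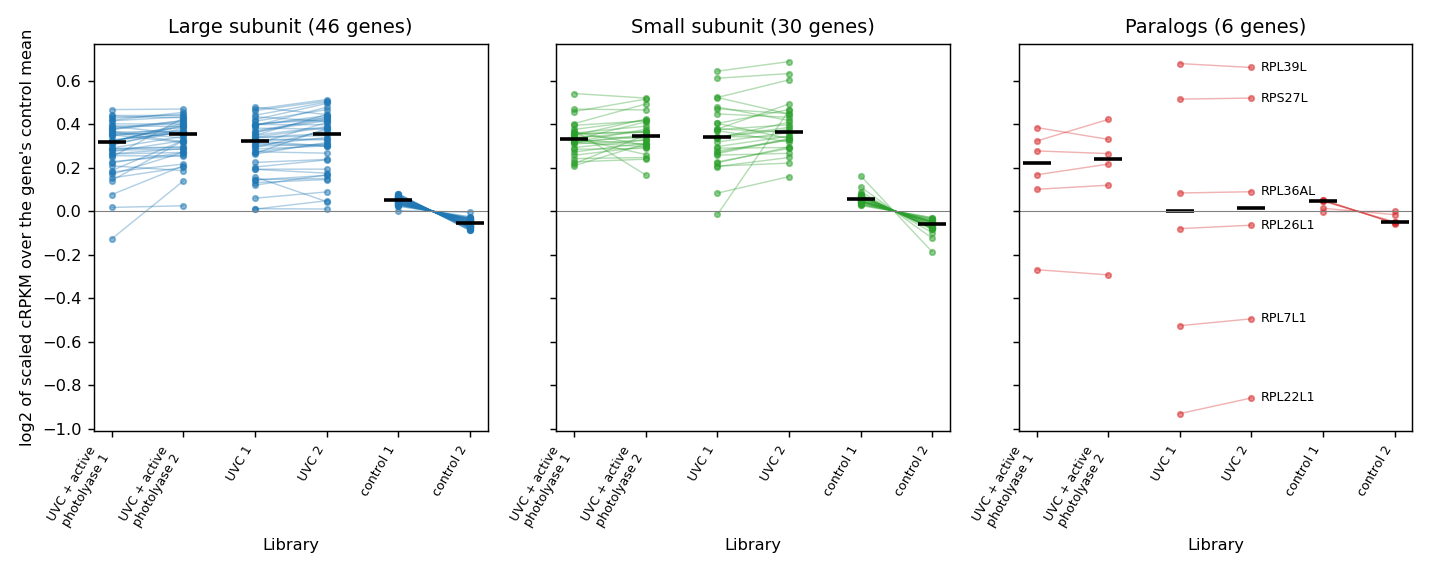
Scaled cRPKM of each tested large-subunit, small-subunit and paralog gene in each library, as log2 over the gene's mean in control, with a line joining the 2 libraries of a group and a black bar at each library's median. Canonical genes of all 4 irradiated libraries lie mostly between 0.1 and 0.5, the first control library lies above the second in every canonical gene, and the paralogs RPL22L1 and RPL7L1 lie well below 0 after UVC.

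Comparison of active photolyase with UVC alone asks what white light with the photolyase active changed. On the TMM scale most ribosomal protein genes were not told apart between these groups: of 83 tested members 7 were higher, 3 were lower and 73 were not called, while 39.2% of all tested genes were higher, 39.9% lower and 20.9% not called. Their median log2 fold change was -0.01, against -0.04 for all tested genes. A fitted change within 0.1 of 0 was found in 69 members (83.1%) and in 11.6% of all tested genes. Of the 73 genes not called, 68 had a 95% interval inside ±0.25, and the other 5 were RPL14, RPL28, RPS19BP1, RPS27 and RPSA. In 21 members both libraries with active photolyase were above both UVC libraries and in 26 both were below, against 43.6% and 46.9% of all tested genes.

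This result depends on the scaling. With library totals the median of all tested genes was -0.34, and 2 members were higher and 78 lower with a median of -0.31, so the members' median was 0.03 above that of all tested genes under both scalings. With genes required to reach 5 cRPKM in 2 libraries, 4 members were higher and 33 lower, with a median of -0.10. Without the second active photolyase library 4 were higher and 7 lower. Lower calls numbered 1 without the second UVC library or without the first active photolyase library, 2 without the first UVC library, and 5 without either control library.

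Of the 10 members called, 6 were paralogs, described below, and 4 were canonical. RPL24, which forms a bridge between the subunits, stood apart from the other canonical genes, with 933 and 944 scaled cRPKM with active photolyase, 753 and 778 after UVC, and 718 and 667 in control. The active photolyase libraries were clearly the highest. Its log2 fold change was 0.29 ± 0.05 for active photolyase over UVC (adjusted p = 0.000219, edgeR) and 0.14 ± 0.05 for UVC over control (adjusted p = 0.0228, edgeR). With library totals the change of active photolyase over UVC was -0.01, while the median of the members was -0.31. RPL5 was higher with active photolyase than after UVC by 0.15 ± 0.05 (adjusted p = 0.0216, edgeR), and lower by 0.16 with library totals. That call was lost without the first or second UVC library or the second active photolyase library and with a filter of 5 cRPKM (adjusted p of 0.14, 0.0641, 0.269 and 0.335 in edgeR).

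RPS7 and RPS28 were the other canonical genes called. RPS7, which also binds MDM2, had 909 and 912 with active photolyase, 815 and 859 after UVC, and 787 and 750 in control, a change of 0.12 ± 0.05 for active photolyase over UVC (adjusted p = 0.0487, edgeR) that was no longer called without any of the 4 irradiated libraries and was -0.18 with library totals. RPS28 was lower with active photolyase than after UVC by 0.17 ± 0.06 on the log2 scale (adjusted p = 0.0158, edgeR). The call was lost without the first or second UVC library or the first active photolyase library, with adjusted p of 0.0592, 0.0895 and 0.137 in edgeR, and with no filter on low values (adjusted p = 0.0889). RPS27 had a log2 fold change of -0.14 ± 0.06 (adjusted p = 0.0624, edgeR).

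Comparison of active photolyase after UVC with control asks how the family stood after irradiation with the photolyase active. Here 79 of the 83 members were higher and 1, RPL22L1, was lower, against 33.0% and 32.9% of all tested genes, of which 65.8% were called in either direction. The median log2 fold change was 0.34, against 0.01 for all tested genes. In 80 members both libraries with active photolyase lay above both control libraries, as 41.5% of all tested genes did, and in 1 both lay below, as 40.5% did. A fitted change within 0.1 of 0 was found in 2 members (2.41%) and in 19.5% of all tested genes. Large-subunit genes numbered 44 of 46 higher and small-subunit genes 29 of 30, each with a median of 0.34. Among canonical genes RPS27 was again the farthest from control, higher by 0.53 ± 0.06 (adjusted p = 7.77e-06, edgeR). RPS25 followed with 0.49 ± 0.06 (adjusted p = 5.09e-06, edgeR). RPL39, among the shortest ribosomal proteins, had 2155 and 2159 scaled cRPKM with active photolyase, 2116 and 2207 after UVC, and 1636 and 1480 in control, and was higher by 0.47 ± 0.06 (adjusted p = 1.12e-05, edgeR). RPL3, RPL28 and RPSA were not called. This comparison shares its control libraries with that of UVC and its active photolyase libraries with the one before, so the 3 sets of values are not independent.

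Summed over each subunit, large-subunit genes had 1.76 and 1.78 times the scaled cRPKM of small-subunit genes with active photolyase, 1.73 and 1.73 times after UVC, and 1.81 and 1.82 times in control. The ratio, which no scaling between libraries can change, was lowest after UVC and did not overlap between groups, though it differed by few percent. An exact permutation test cannot go below 0.33 here either.

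Paralogs were called in both directions in each comparison. Of the 6 tested, 2 (33.3%) were higher and 2 (33.3%) lower after UVC than in control, beside 42.5% and 43.1% of all tested genes. With active photolyase 4 (66.7%) were higher and 2 (33.3%) lower than after UVC, beside 39.2% and 39.9%. Over control, 5 (83.3%) were higher and 1 (16.7%) lower with active photolyase, beside 33.0% and 32.9%. With so few genes, these counts say little of paralogs as a class. RPL22L1, a paralog of the RNA-binding large-subunit protein RPL22, had 15.6 and 15.3 scaled cRPKM with active photolyase, 9.85 and 10.4 after UVC, and 19.4 and 18.1 in control. The UVC libraries were the lowest and the groups did not overlap. It fell by 0.89 ± 0.06 on the log2 scale after UVC over control (adjusted p = 6.37e-09, edgeR), was higher with active photolyase than after UVC by 0.61 ± 0.06 (adjusted p = 5.83e-07, edgeR) and was below control there by a log2 fold change of -0.28 ± 0.06 (adjusted p = 0.000932, edgeR). With library totals these changes kept their sign and their calls at -0.48, 0.31 and -0.17. RPL22 itself had 216 and 221 with active photolyase, 219 and 227 after UVC, and 174 and 164 in control. As a share of its partner's cRPKM in the same library, RPL22L1 stood at 7.22 and 6.92% with active photolyase, 4.50 and 4.56% after UVC, and 11.11 and 11.05% in control.

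RPL7L1, a relative of RPL7 that acts in large-subunit assembly, likewise fell after UVC and was higher with active photolyase than after UVC. Unlike RPL22L1, it was called above control with active photolyase, though that call was lost whichever library was left out. It had 41.3 and 41.8 scaled cRPKM with active photolyase, 26.7 and 27.3 after UVC, and 38.5 in both control libraries. Its log2 fold change was -0.51 ± 0.05 for UVC over control (adjusted p = 1.92e-07, edgeR) and 0.62 ± 0.05 for active photolyase over UVC (adjusted p = 3.78e-08, edgeR). With library totals the fall after UVC was -0.09 and not called (adjusted p = 0.0793, edgeR). As a share of RPL7 it stood at 4.61 and 4.59% with active photolyase, 3.11% in both UVC libraries, and 4.92 and 5.43% in control. RPL7 itself rose by 0.22 ± 0.06 after UVC over control (adjusted p = 0.00274, edgeR), a call lost with no filter on low values (adjusted p = 0.0693).

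RPL26L1 and RPL36AL differ from RPL26 and RPL36A by few residues, and each was higher with active photolyase than after UVC on the TMM scale. RPL26L1 had 37.4 and 38.7 scaled cRPKM with active photolyase, 31.5 and 31.8 after UVC, and 33.6 and 32.9 in control. RPL36AL, the most abundant paralog, had 342 and 339 with active photolyase, 299 and 300 after UVC, and 293 and 271 in control. Their log2 fold changes for active photolyase over UVC were 0.26 ± 0.06 for RPL26L1 (adjusted p = 0.00117, edgeR) and 0.18 ± 0.05 for RPL36AL (adjusted p = 0.00511, edgeR), and with library totals they were -0.04 and -0.12. RPL36AL lost its call with a filter of 5 cRPKM (log2 fold change 0.09, adjusted p = 0.112, edgeR) and without the second active photolyase library (adjusted p = 0.0576, edgeR). Relative to its partner, RPL26L1 stood at 1.87 and 1.94% with active photolyase, 1.62 and 1.53% after UVC, and 2.15 and 2.21% in control. RPL36AL stood at 29.7 and 29.6% of RPL36A with active photolyase, 26.7 and 26.0% after UVC, and 33.2% in both control libraries.

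RPL39L and RPS27L were higher after UVC than in control and lower with active photolyase than after UVC. RPL39L, best known from the ribosomes of male germ cells, had 16.9 and 18.1 scaled cRPKM with active photolyase, 21.6 and 21.3 after UVC, and 13.9 and 13.0 in control. It had the highest log2 fold change of any member for UVC over control, 0.67 ± 0.08 (adjusted p = 4.96e-06, edgeR), and the lowest for active photolyase over UVC, -0.30 ± 0.08 (adjusted p = 0.00455, edgeR). RPS27L, a target of p53, had 19.7 and 18.9 with active photolyase, 21.5 and 21.6 after UVC, and 15.6 and 14.5 in control, and rose by 0.52 ± 0.06 after UVC over control (adjusted p = 3.27e-06, edgeR). Its lower level with active photolyase than after UVC, -0.16 ± 0.06 (adjusted p = 0.0288, edgeR), was not called without any of the 4 irradiated libraries nor by DESeq2 (adjusted p = 0.0744). RPS27 moved too, and RPS27L stood at 0.620 and 0.606% of RPS27 with active photolyase, 0.632 and 0.615% after UVC, and 0.673 and 0.712% in control. RPL3L, the form of RPL3 in striated muscle, had 0.395 to 0.956 scaled cRPKM and was not tested, and RPL10L, a testis form of RPL10, was listed at 0 in all libraries.

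**Figure D3:**
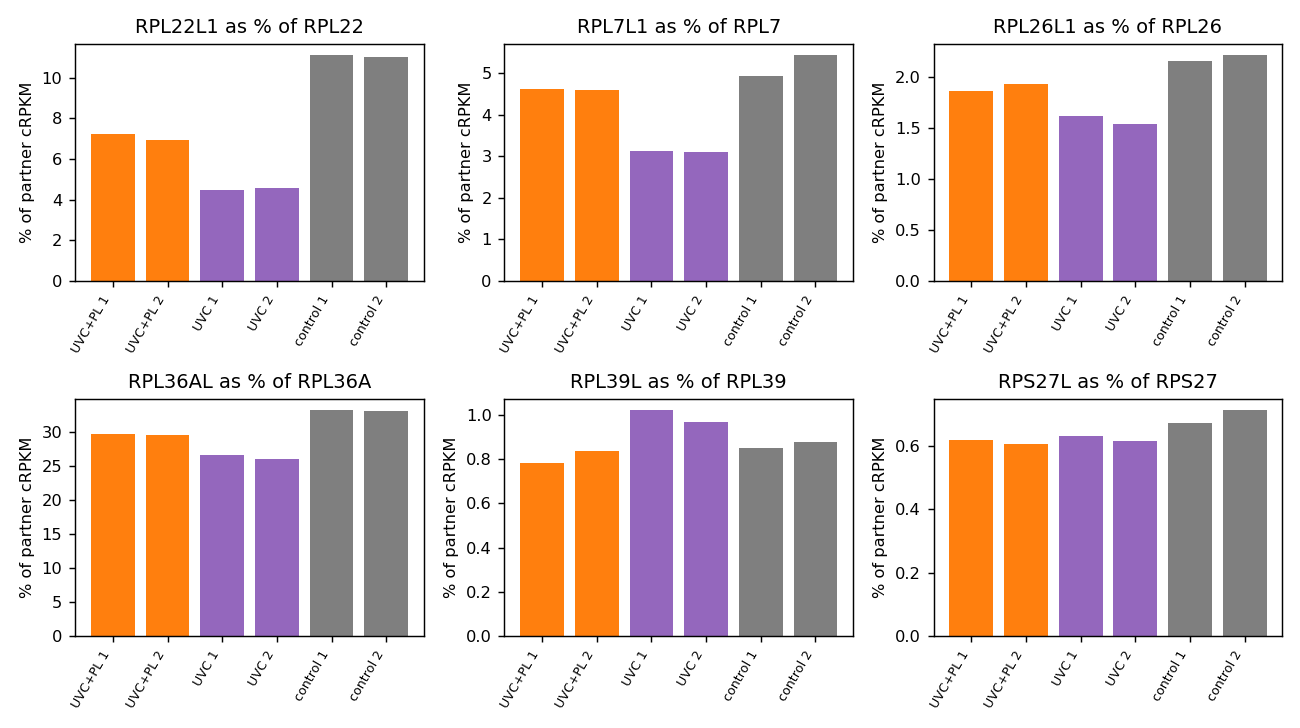
Each of 6 paralogs as a percentage of the cRPKM of its canonical partner, 1 bar per library, in UVC with active photolyase (UVC+PL), UVC and control. For RPL22L1, RPL7L1, RPL26L1 and RPL36AL the UVC libraries are the lowest and the control libraries the highest, whereas RPL39L is highest after UVC.

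Among canonical genes, those with short coding sequences lay farther from control. Across the 76 genes, log2 fold change of UVC over control and log2 coding length had a Pearson r of -0.58 and a Spearman rho of -0.58, against -0.14 and -0.15 over 11562 tested genes. These are descriptions across genes that share the same libraries, and genes are not independent replicates. Genes with coding sequences of 400 bases or less (25 genes) had a median change of 0.42, those of over 400 and up to 600 bases (28 genes) 0.33, and longer ones (23 genes) 0.26. For active photolyase over control the medians were 0.37, 0.34 and 0.28 (r = -0.54, rho = -0.55). For active photolyase over UVC they were -0.04, -0.00 and 0.02 (r = 0.34, rho = 0.38). RPL41, which encodes a peptide of the large subunit and has the shortest coding sequence (75 bases), changed by 0.46 for UVC over control, and RPL4, with the longest, by 0.15. The log2 mean level had an r of 0.05 with the change of UVC over control. Log2 effective length had an r of -0.13 and a rho of -0.23 with it, against -0.25 and -0.27 over 11926 tested genes. Span of the gene had an r of -0.25 with the same change, close to the -0.26 over 11728 tested genes, and canonical genes were short, with a median span of 5.61 kb against 30.2 kb for all tested genes.

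**Figure D4:**
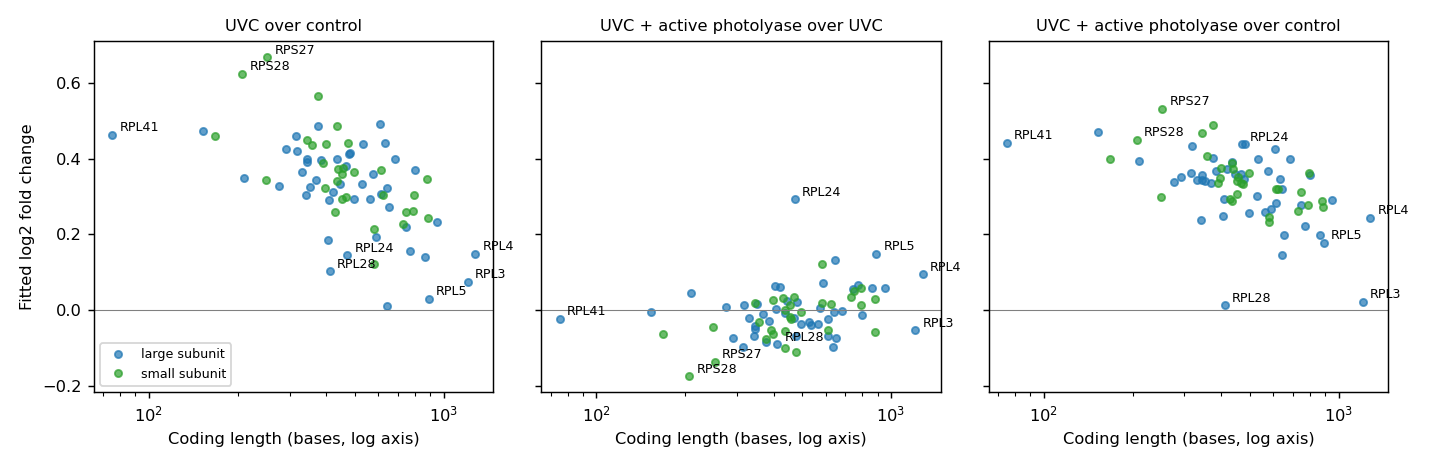
Fitted log2 fold change of each of the 76 canonical ribosomal protein genes against its coding length in bases (log axis) in the 3 comparisons, with large-subunit genes in blue and small-subunit genes in green. In both comparisons with control, RPS27, RPS28 and RPL41, with short coding sequences, lie above RPL3, RPL4 and RPL5, with longer ones. Most genes lie within 0.1 of 0 between active photolyase and UVC.

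Canonical genes changed alike in direction with and without a tract at the annotated start, and genes outside the family with a tract moved both ways. The 46 canonical genes with the tract had a median log2 fold change of 0.35 for UVC over control, with 43 higher, and the 16 with a RefSeq start and no tract there had 0.28, with 15 higher. Among 662 tested genes outside the family with a tract, 306 were higher and 254 lower, with a median of 0.09, and among the 8728 without 3613 were higher and 3910 lower, with a median of -0.03. Both stand beside 42.5% higher and 43.1% lower among all tested genes. For active photolyase over UVC those 662 genes had a median of -0.11, with 231 higher and 295 lower, beside 39.2% and 39.9% of all tested genes. For active photolyase over control they had a median of 0.03, with 233 higher and 180 lower, beside 33.0% and 32.9%.

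FAU and RACK1 lie outside the symbol pattern. FAU, from which small-subunit protein RPS30 is cut, had 519 and 516 scaled cRPKM with active photolyase, 492 and 485 after UVC, and 410 and 388 in control, and rose by 0.29 ± 0.05 after UVC over control (adjusted p = 0.000111, edgeR). RACK1, a scaffold on the small subunit, changed by 0.05 ± 0.06 (adjusted p = 0.458, edgeR). Neither was called for active photolyase over UVC, where FAU changed by 0.08 ± 0.05 (adjusted p = 0.152, edgeR) and RACK1 by 0.09 ± 0.06 (adjusted p = 0.153, edgeR).

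Other classical TOP mRNAs encode translation factors and related proteins. For this list and those below, counts and medians were taken on the TMM scale only. Library totals moved the median of all tested genes to 0.42 for UVC over control and to -0.34 for active photolyase over UVC. The sign of a small list median may therefore depend on the scaling. Of 16 tested, 2 (12.5%) were higher after UVC than in control and 8 (50%) lower (median -0.10), where all tested genes had 42.5% and 43.1%. With active photolyase 10 (62.5%) were higher than after UVC and none lower (median 0.20), against 39.2% and 39.9% of all tested genes. Over control, 3 (18.75%) were higher and 2 (12.5%) lower with active photolyase (median 0.06), against 33.0% and 32.9%. NPM1, a nucleolar chaperone, had 631 and 676 scaled cRPKM with active photolyase, 381 and 409 after UVC, and 656 and 644 in control. Its log2 fold change was -0.72 ± 0.06 for UVC over control (adjusted p = 4.2e-08, edgeR). LARP1, which binds the tract, had 25.4 and 26.7 with active photolyase, 19.6 and 20.1 after UVC, and 38.5 and 41.0 in control, a log2 fold change of -0.9998 ± 0.05 for UVC over control (adjusted p = 5.13e-10, edgeR).

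Against control, most factors that build ribosomes went the other way from the proteins built into them. Of 39 tested ribosome biogenesis genes, 1 (2.56%) was higher and 34 (87.2%) were lower after UVC than in control (median -1.11). All tested genes had 42.5% and 43.1%. With active photolyase 35 (89.7%) were higher and 2 (5.13%) lower than after UVC (median 0.85), against 39.2% and 39.9% of all tested genes. Over control, 4 (10.3%) were higher and 23 (59.0%) lower with active photolyase (median -0.17), against 33.0% and 32.9%. WDR43, of the small-subunit processome, had 30.5 and 32.8 scaled cRPKM with active photolyase, 6.29 and 7.03 after UVC, and 38.5 and 39.9 in control, with a log2 fold change of -2.56 ± 0.06 for UVC over control (adjusted p = 2.43e-13, edgeR). POLR1D, a subunit of RNA polymerases I and III, was the only member of the list called higher after UVC, by 0.86 ± 0.06 (adjusted p = 1.05e-08, edgeR).

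Among genes that regulate TOP mRNAs or S6, 13 of 20 were lower and 6 higher after UVC (median -0.46), with 10 higher and 7 lower with active photolyase than after UVC (median 0.11) and 4 higher and 13 lower with active photolyase than in control (median -0.30). LARP4B, a relative of LARP1, fell by 2.07 on the log2 scale after UVC over control, and TIA1, which represses TOP mRNAs under stress, rose by 1.03. Genes of ribosome collision, rescue and ribotoxic stress numbered 15 lower and 3 higher of 20 after UVC (median -0.36). Lower genes thus made up 65% and 75% of these lists, against 43.1% of all tested genes. With active photolyase 12 were higher and 5 lower than after UVC (median 0.25), and 1 was higher and 13 lower than in control (median -0.22). For active photolyase over UVC, 50% of the TOP and S6 list was higher and 35% lower, and of the collision list 60% and 25%. All tested genes had 39.2% and 39.9%. For active photolyase over control the shares were 20% and 65% in the first list and 5% and 65% in the second. All tested genes had 33.0% and 32.9%. MAP3K20, the kinase ZAK that senses stalled ribosomes, had 5.19 and 6.13 scaled cRPKM with active photolyase, 4.04 and 4.22 after UVC, and 12.1 and 12.8 in control, and was lower with active photolyase than in control by a log2 fold change of -1.14 ± 0.08 (adjusted p = 6.5e-08, edgeR).

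On the list of ribosomal protein surveillance, where free ribosomal proteins meet MDM2, 4 of 9 genes were higher and 3 lower after UVC than in control, 4 higher and 2 lower with active photolyase than after UVC, and 4 higher and 3 lower with active photolyase than in control. The shares after UVC over control, 44.4% higher and 33.3% lower, were near the 42.5% and 43.1% of all tested genes. For active photolyase over UVC they were 44.4% and 22.2%, against 39.2% and 39.9%. For active photolyase over control they were 44.4% and 33.3%, against 33.0% and 32.9%. RPL5, RPL11 and RPL23 of this list are also members of the family. MDM2 had 8.22 scaled cRPKM in both libraries with active photolyase, 3.74 and 4.07 after UVC, and 8.86 and 9.30 in control, a log2 fold change of -1.22 ± 0.06 for UVC over control (adjusted p = 1.62e-10, edgeR). Most ribosomal protein genes rose after UVC in the same libraries in which MDM2, NPM1 and most biogenesis factors fell.

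**Figure D5:**
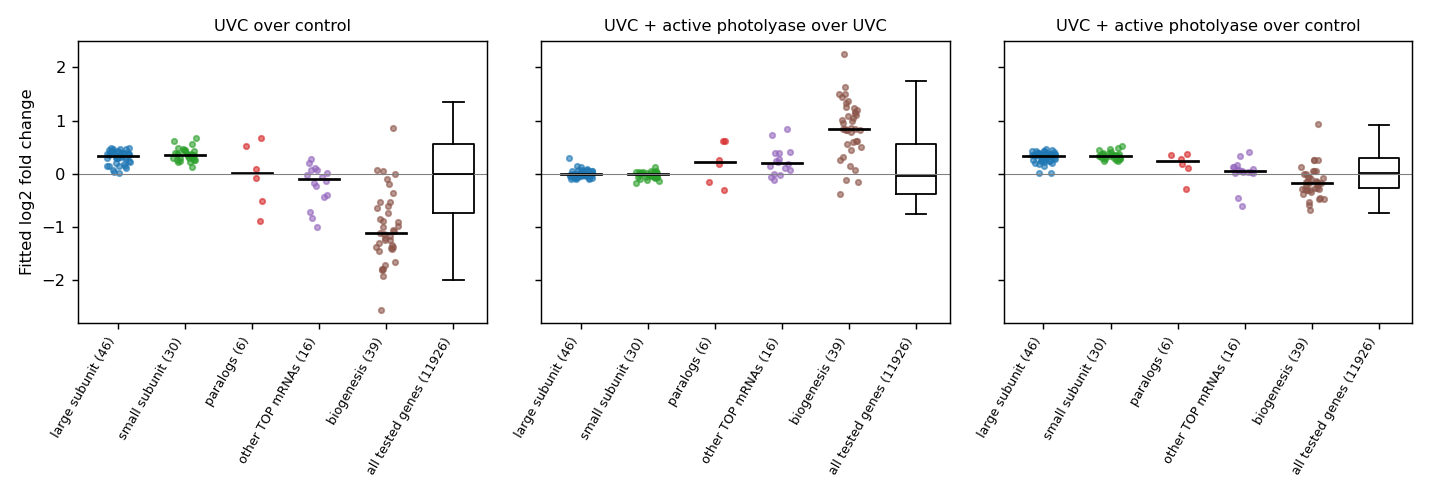
Fitted log2 fold change of each tested gene in 3 classes of ribosomal protein genes, the other TOP mRNAs and ribosome biogenesis, 1 point per gene with a black bar at the median, beside all tested genes (box from the first to the third quartile, whiskers from the 5th to the 95th percentile). Large- and small-subunit genes lie around 0.34 in both comparisons with control and near 0 between active photolyase and UVC. The 6 paralogs are spread from -0.89 to 0.67 for UVC over control, and biogenesis genes have medians of -1.11, 0.85 and -0.17.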

How the data were processed

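For each of 6 libraries the authors deposited a whole read count and an RPKM value, called cRPKM, for 19847 Ensembl genes, of which 354 had no value in any library. Reads were aligned with Bowtie to hg19, per the submitters' processing notes, and the library kit was Illumina TruSeq, per the labels' protocols. No source used here gives the aligner's version, the annotation, how reads were assigned to genes or whether strand was used. The deposited counts entered the quasi-likelihood F test of edgeR 4.0.16 (R 4.3.3; TMM, 3 group means, 3 residual and 10.03 prior degrees of freedom). It was two-sided, with Benjamini-Hochberg adjustment over 11926 genes and calls at 0.05. The script was run on simulated data in which few genes changed, all upward, so that run did not test the scaling. The common biological coefficient of variation was 4.62%. Each standard error is the fitted log2 change over the root of its F, with a median of 0.06 over the members in each comparison.

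Symbols, coding lengths and spans came from GENCODE v29 and gene name tables, and starts from RefSeq (GRCh38.p14), matched by symbol, with no coordinate moved between builds. Named genes were those with the 4 smallest p values in each direction of each comparison, the 3 highest and 3 lowest levels, the paralogs and a list of genes with known roles, and from each other list those of smallest p. RPL14, RPL28, RPL41, RPL4 and RACK1 were named after their values were seen. Members and lists were chosen with earlier results of these data known, and some listed genes are not reported here. Alternatives were other scalings (library totals, DESeq2 size factors, TMM without ribosomal protein and mitochondrial genes), other filters, DESeq2 1.42.0, limma 3.58.1 on log2(cRPKM + 1) and log2(cRPKM + 0.1), a replicate block and each library left out.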

Additional observations from a re-analysis of the deposited data

How the results depend on the processing

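For UVC over control, members called lower numbered 1 with library totals and with limma on unscaled cRPKM at either pseudocount (1 or 0.1), and the median was 0.76 under all 3, 0.25 with no filter and 0.46 with a filter of 5 cRPKM. For active photolyase over UVC, 2 were higher and 78 lower (median -0.31) with library totals, 2 higher and 77 lower (median -0.31) with limma at either pseudocount, 1 lower with no filter (median 0.036), and 4 higher and 33 lower with a filter of 5 cRPKM (median -0.10). For active photolyase over control the median was 0.45 with library totals and with limma at either pseudocount. Library totals and both limma fits leave out the TMM factors, which moves all genes together.

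Those 3 settings turned the sign for RPL26L1 after UVC over control (0.34 with totals, 0.33 and 0.34 with limma) and, for active photolyase over UVC, for RPL24 (-0.0128 with totals, -0.0126 with limma at either pseudocount), RPL26L1 (-0.0414, -0.0404 and -0.0414), RPL36AL (-0.12 in each), RPL5 (-0.16 in each) and RPS7 (-0.18 in each). DESeq2's size factors, its test, and TMM without ribosomal protein and mitochondrial genes moved no count of members by over 1.5 times.

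With each library left out in turn, members higher after UVC than in control numbered 68 to 77 and lower 2 in each (median 0.30 to 0.39). For active photolyase over UVC they numbered 4 to 8 higher and 1 to 7 lower (median -0.054 to 0.010), and over control 72 to 77 higher and 1 lower in each (median 0.28 to 0.39). RPL7L1, higher with active photolyase than in control by 0.11 (adjusted p = 0.0495, edgeR), lost its call whichever of the 6 libraries was left out. Differences between replicates, compared across genes, had an r of -0.02 between UVC and control. The r was 0.18 between active photolyase and UVC, and 0.05 between active photolyase and control. With 1 difference per group, these values cannot show whether libraries of the same number were handled together. With the replicate block 73 members were higher and 2 lower after UVC over control. They numbered 6 and 3 for active photolyase over UVC, where RPS7 lost its call (adjusted p = 0.0536, edgeR). For active photolyase over control they numbered 78 and 1. The tract at the start was found in 46 canonical genes, and in 53 when 5 bases either side were allowed. Depth was no limit for most members, whereas RPSA, with 42 to 73 counts a library, allows a log2 change between -0.27 and 0.76 for UVC over control.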
